A study of Mus musculus with 2 samples.

Results

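The genes *Slc12a1*, *Umod*, *Kcnj1*, *Bsnd*, *Ptger3* and *Ppp1r1a*, which serve salt transport in the thick ascending limb of the loop of Henle, were followed in kidneys of mice lacking *Cnnm2*, which encodes a membrane protein involved in magnesium transport. They were chosen by symbol, taking each array probe that carries one of these gene names. All 6 were found, with 7 probes in all, among the 31829 gene names on the array, of which 19708 could be tested. The knockout mice were *Cnnm2* fl/fl;*Six2-Cre*, with both alleles removed in the kidney, and the controls were *Cnnm2* +/+;*Six2-Cre*. Kidneys were taken at the age of 2 months, and RNA of both genotypes was hybridized together on each of 2 arrays. The knockout RNA carried Cy5 (red) on array 1 and Cy3 (green) on array 2, and the control RNA carried the other dye. Both genotypes carry the Cre transgene. *Six2* is active in the progenitors of the nephron, so Cre is expected in nephron epithelium and not in the collecting duct, vessels or stroma. The number and sex of the mice behind each RNA sample are not given in the sources used here, nor is it stated that both arrays hold the same RNA. For this reason the pair of arrays stands for 1 replicate per genotype, and no result here rests on a test between the genotypes. The study's own test and limma, which take the arrays as replicates, were run only as alternatives. Each SD is that of the 2 arrays. It covers labeling, hybridization and the dye difference but no known variation between mice. The dye difference cancels in the mean, so the SD is not the error of the mean.

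Cells of the thick ascending limb take up sodium, potassium and chloride from the tubule through the cotransporter NKCC2 (*Slc12a1*), the target of loop diuretics. Potassium returns to the tubule through the channel ROMK (*Kcnj1*), and chloride leaves on the blood side through chloride channels that need the subunit barttin (*Bsnd*). The resulting voltage drives calcium and magnesium between the cells, and inherited loss of NKCC2, ROMK or barttin causes Bartter syndrome, a salt-wasting disease. Uromodulin (*Umod*) is the protein these cells secrete into urine, the EP3 receptor (*Ptger3*) lets prostaglandin E lower salt uptake there, and *Ppp1r1a* encodes an inhibitor of protein phosphatase 1 that is abundant in this segment. Barttin is also made in the distal convoluted tubule (DCT) and intercalated cells, and ROMK also in later segments. In whole-kidney RNA these 2 genes are therefore not read from the thick ascending limb alone. Whether the other genes are read from this segment alone was not tested.

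What each ratio rests on is 1 oligonucleotide probe of 60 bases, and the last 30 bases of each probe are shown because they identify the stretch of transcript that was measured. Positions are those of the array files on the mm9 build, and the strand is the order in which the files give start and end. The probes lie at chr2:125055143-125055202 (*Slc12a1*, plus strand), chr7:126606529-126606588 (*Umod*, minus strand), chr9:32206612-32206671 (*Kcnj1*, plus strand), chr4:106156065-106156124 (*Bsnd*, minus strand) and chr15:103361073-103361132 (*Ppp1r1a*, minus strand). *Ptger3* has a brighter probe at chr3:157307508-157307567 and a dimmer one at chr3:157268044-157268103, both on the plus strand. Capitals mark the hexamer AATAAA, the common polyadenylation signal.
Slc12a1: taatgcagcggataataagcttaccctctg
Umod: tccttcaaatgtgatatgtatgaagcccct
Kcnj1: aatgtcttgtttgttcatttccacatctgc
Bsnd: ggggatgaAATAAAaaagttttttaacttc
Ptger3, brighter probe: aaaccagctaattatcattccagtccaatg
Ptger3, dimmer probe: tgctaagaaagatccttcttcggaagttct
Ppp1r1a: cctcaaggttttcctttgttactgtggaaa

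The hexamer, searched on the strand of the probe, stands in the printed part of the *Bsnd* probe and in none of the other 6. It occurs in the last 30 bases of 10.6% of the 39429 probes on the array. Each probe covers 60 consecutive bases of the genome and so crosses no intron. The *Ptger3* probes start 39464 bases apart in the genome but 734 bases apart in the transcript, so they report on different exons. The GC content of the 7 probes was between 35% and 45%, beside a median of 41.7% over the array. Whether a probe lies in coding sequence or in an untranslated region is not given in the sources used here.

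All 7 probes were well above background in both colours on both arrays and none was saturated. Their uncorrected signals were between 11.4 and 6293 times the local background. The scanner software estimated the error of each ratio on each array at 0.20 to 0.22 on the log2 scale. Each probe was printed as 1 spot per array, and no signal level of one gene was set against that of another.

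*Umod*, *Bsnd* and *Ppp1r1a* had slightly lower signals in the knockout, by nearly the same ratio on both arrays. *Kcnj1* was lower on both arrays by unequal amounts, *Ptger3* was higher on both arrays by its brighter probe, and *Slc12a1* went in opposite directions. None of the 6 genes reached a 2-fold mean change. The log2 ratios of knockout over control are plotted for each probe.

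**Figure D1:**
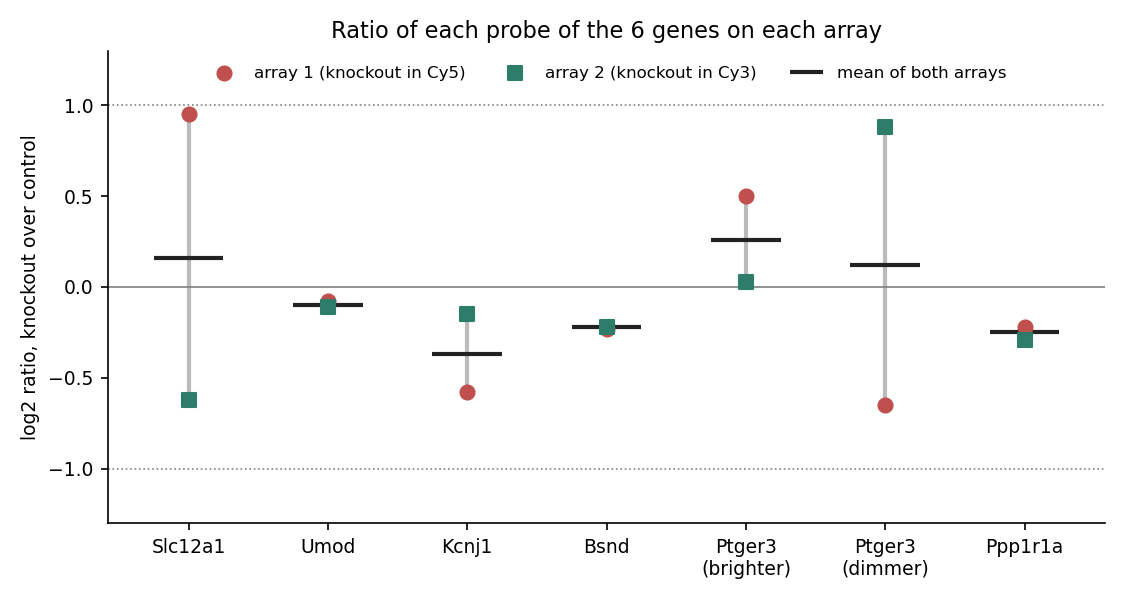
The vertical axis gives the log2 ratio of knockout over control for each of the 7 probes on array 1 (circles) and array 2 (squares), with the mean as a bar and dotted lines at a 2-fold change. The arrays coincide for *Umod*, *Bsnd* and *Ppp1r1a*, while *Slc12a1* lies at 0.95 and -0.62 on opposite sides of 0.

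*Slc12a1* is the gene whose product the whole transport of this segment depends on. On array 1 the knockout gave a processed signal, in arbitrary units, of 9100 and the control one of 4710, but on array 2 the knockout gave 4989 and the control 7671. The red channel was thus the higher on both arrays, whichever genotype it carried. Turned to knockout over control, its log2 ratios were 0.95 and -0.62, and their mean of 0.16 ± 1.11 (SD) was much smaller than the SD. Its mean log2 ratio of red over green was 0.79, a size reached by 1069 of the 19708 genes (5.42%). The direction of *Slc12a1* therefore followed the dye, and no direction between the genotypes can be read from this probe.

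*Umod* encodes the most abundant protein of normal human urine. On array 1 the knockout gave a processed signal of 122832 and the control one of 129724. On array 2 the signals were 100204 for the knockout and 108437 for the control. The knockout was the lower on each array, by less than the software's error of a ratio. The log2 ratios were -0.08 and -0.11, with a mean of -0.10 ± 0.02 (SD) or 0.94 times the control, and 26.3% of genes tested had a lower mean.

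*Kcnj1* encodes the ROMK channel. Array 1 gave a signal of 17893 for the knockout and 26749 for the control, and array 2 gave 15300 and 16983. The log2 ratio was -0.58 on array 1, beyond the software's error of 0.21, and -0.15 on array 2, within the error of 0.20. The mean of -0.37 ± 0.30 (SD), or 0.78 times the control, was the lowest of the 6 genes, and 3.71% of genes tested lay lower. The size of the difference was thus not settled between the arrays, although its direction was the same.

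*Bsnd* encodes barttin, a subunit that chloride channels of this segment need to work at the membrane. The knockout signal was 3994 beside a control signal of 4671 on array 1, and 3146 beside 3661 on array 2. The log2 ratios were -0.23 and -0.22, with a mean of -0.22 ± 0.0049 (SD), or 0.86 times the control. The arrays lay closer together than the software's error of 0.21 for each, and the SD of 2 arrays may understate the error. A lower mean was seen for 9.44% of genes tested.

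*Ppp1r1a* had a signal of 2491 in the knockout and 2894 in the control on array 1, and of 2406 and 2947 on array 2. The log2 ratios of -0.22 and -0.29 were each slightly beyond the software's error of 0.20 and 0.21. Their mean was -0.25 ± 0.05 (SD), or 0.84 times the control, and 7.58% of genes tested lay lower.

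The 2 probes of *Ptger3* differed on the single arrays, although the mean of each was higher in the knockout. The brighter probe had a signal of 2031 in the knockout and 1441 in the control on array 1, and of 1481 and 1455 on array 2. Its log2 ratios were 0.50 and 0.03, with a mean of 0.26 ± 0.33 (SD), so the mean did not exceed the SD and array 2 showed next to no difference. The dimmer probe had a signal of 307 in the knockout and 481 in the control on array 1, and of 614 and 334 on array 2. Its log2 ratios of -0.65 and 0.88 had opposite directions, and its mean was 0.12 ± 1.08 (SD). For the dimmer probe the green channel was the higher on both arrays, with a mean log2 ratio of red over green of -0.76, while for the brighter probe the knockout was the higher in either colour.

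**Figure D2:**
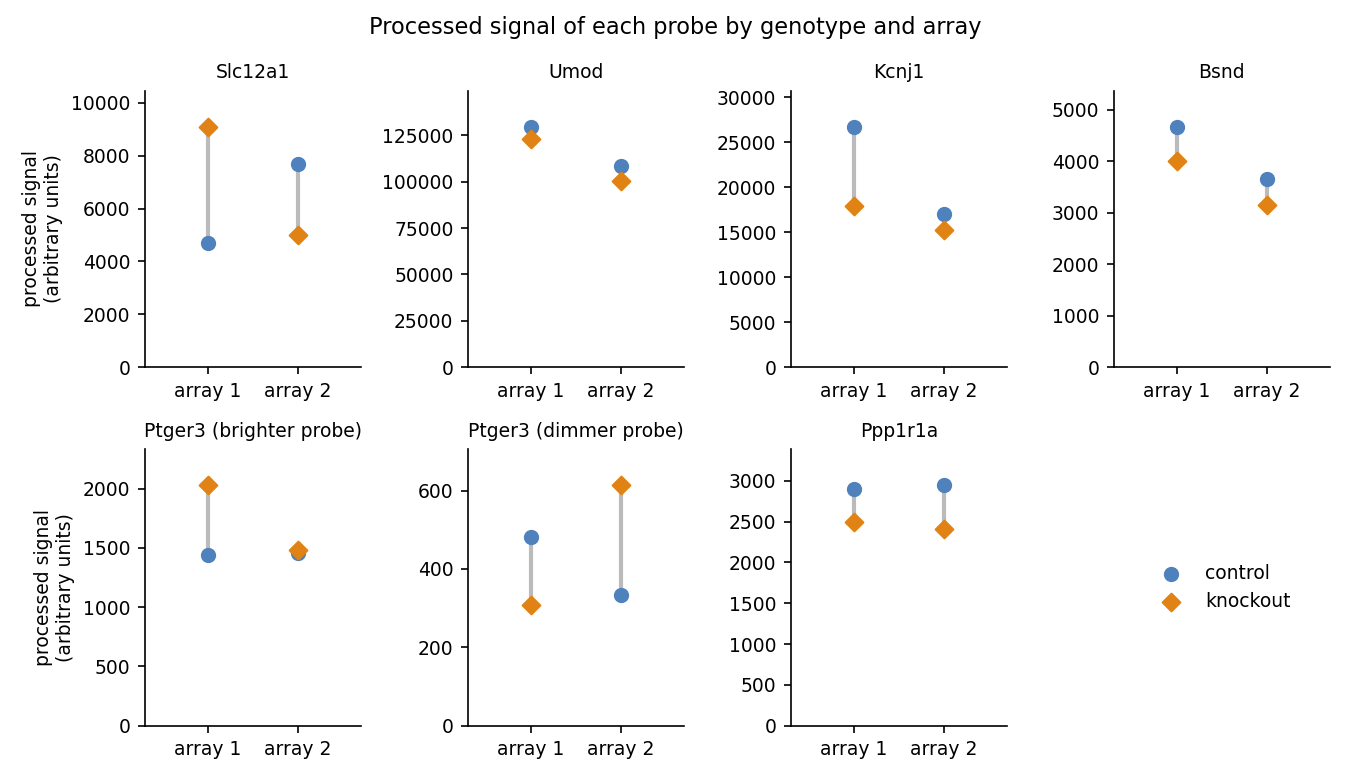
Each panel gives the processed signal (arbitrary units, from 0) of 1 probe in control (circles) and knockout (diamonds) on array 1 and array 2. The control lies above the knockout on both arrays for *Umod*, *Kcnj1*, *Bsnd* and *Ppp1r1a*, and the order turns between the arrays for *Slc12a1* and the dimmer *Ptger3* probe.

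The same direction on both arrays was thus shared by 5 of the 6 genes, 4 of them lower and 1 higher in the knockout. Among all genes tested, 15.6% were lower on both arrays and 12.1% were higher on both. A mean larger than the SD of the arrays was found for 4 of the 6 genes, all lower (*Umod*, *Kcnj1*, *Bsnd* and *Ppp1r1a*), where 11.8% of all genes were lower and 8.93% higher by this rule. The dye difference enters this SD but cancels in the mean, so the rule also sorts genes by the dye difference of their probes. By the rule of size, which asks for a mean of at least 2-fold with the same direction on both arrays, 0 of the 6 genes were counted, and 0.315% of all genes were higher and 0.284% lower. The median of the 6 mean log2 ratios was -0.16, with medians of -0.15 on array 1 and -0.18 on array 2, beside a median of -0.01 over all genes. Since the genes were chosen by name for a shared segment, these counts describe them and are no test. With whole-kidney RNA and 1 replicate per genotype, fewer cells of this segment, less RNA per cell and variation between mice cannot be told apart.

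The arrays themselves were checked through the deleted gene and through all genes together. *Cnnm2* was lower in the knockout on both arrays, with a mean log2 ratio of -2.67 ± 0.30 (SD), as the labels would have it. Across the 19708 genes, the knockout over control ratios of the arrays had a negative correlation (Pearson's r of -0.51, Spearman's rho of -0.56, given as a description, since all genes share the same arrays). Either array alone carries the dye difference along with that of the genotypes. On array 1 alone, 4 of the 6 genes were lower in the knockout, with log2 ratios from -0.58 to 0.95, and on array 2 alone 5 were lower, with log2 ratios from -0.62 to 0.03.

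**Figure D3:**
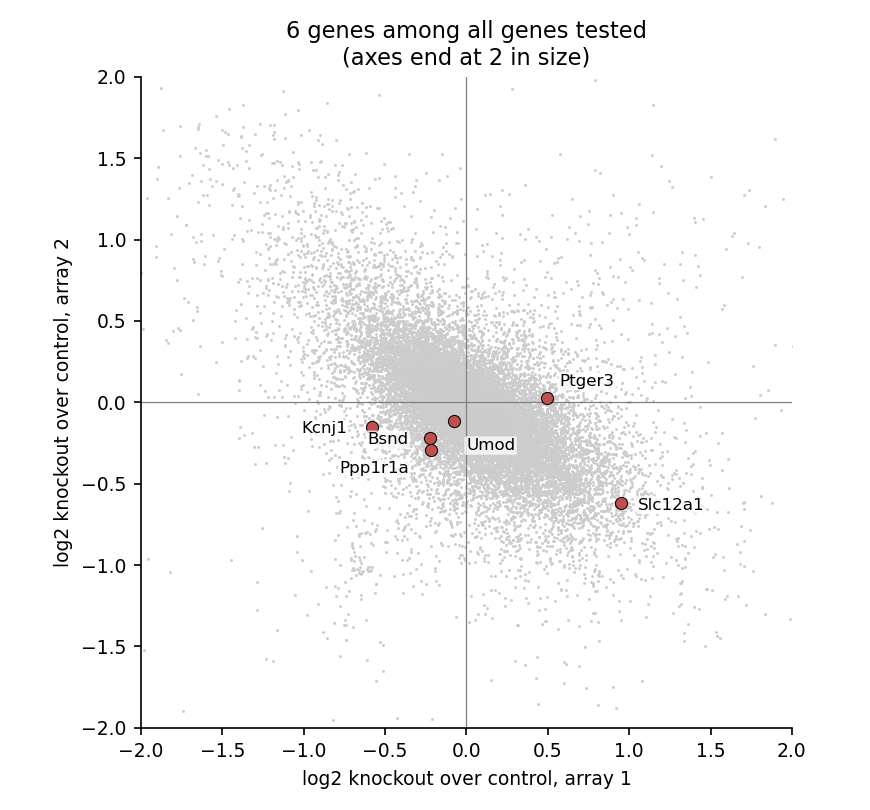
The log2 ratio of knockout over control on array 1 (horizontal) is plotted against that on array 2 (vertical) for all genes tested (grey) and the 6 genes (red), and 126 genes beyond 2 in size on either array lie outside the axes. *Slc12a1* lies along the falling diagonal on which a dye difference places a gene, and *Kcnj1*, *Bsnd*, *Ppp1r1a* and *Umod* lie at the lower left, below 0 on both axes.

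The 9 lists of related genes hold 59 genes, of which 53 were tested. Of these, 0 met the rule of size (0.315% higher and 0.284% lower among all genes tested). Their values are those of whole-kidney RNA, and the share of the thick ascending limb in them was not tested. The partners of transport in the thick ascending limb had a median of -0.02 over 5 genes (-0.07 on array 1 and 0.03 on array 2), with 1 lower on both arrays, 1 higher on both and 3 opposite. *Kcnj10*, a potassium channel of the basolateral membrane, had log2 ratios of -0.29 and -0.20, close to those of *Bsnd*, whereas its partner *Kcnj16* had -0.07 and 0.03. *Atp1b1* and *Fxyd2*, which encode accessory subunits of the sodium pump, did not hold 1 direction, with -0.73 and 0.36 for *Atp1b1* and 0.08 and -0.11 for *Fxyd2*. *Slc9a3*, the sodium-proton exchanger of the apical membrane, was slightly higher, with 0.07 and 0.13.

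Genes of paracellular transport and calcium sensing had a median of -0.05 over 6 genes, with 1 lower on both arrays, 1 higher and 4 opposite. Their means lay between -0.09 (*Casr*, the calcium-sensing receptor) and 0.12 (*Cldn10*, listed on the array under its synonym *Cldn10a*). The claudins of magnesium and calcium passage, *Cldn16* and *Cldn19*, had log2 ratios of 0.30 and -0.45 and of -0.06 and -0.05. The parathyroid hormone receptor *Pth1r* had -0.34 and 0.25, and *Cldn14* had a mean of 0.06.

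Among 14 regulators of the cotransporter the median was -0.05, with 3 lower on both arrays, 2 higher and 9 opposite. *Wnk1*, a kinase at the head of the pathway that phosphorylates NKCC2, had the lowest mean, -0.56 ± 0.54 (SD), from log2 ratios of -0.18 and -0.94. *Wnk4* had -0.53 and -0.11, and *Cab39*, an adaptor that activates the downstream kinases, had -0.17 and -0.30. Those downstream kinases turned between the arrays, with 0.02 and -0.36 for *Stk39* (SPAK) and 0.70 and -0.91 for *Oxsr1* (OSR1). The highest mean, 0.11, was that of *Gnas*, which encodes the G protein through which vasopressin raises cyclic AMP.

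Of the 4 genes related to uromodulin, 1 was lower on both arrays and 3 had opposite directions, with a median of -0.10. *Hpn*, the protease that releases uromodulin from the membrane, had log2 ratios of -0.83 and 0.74. *Gp2*, a close relative of *Umod*, had the lowest mean, -0.34 ± 0.47 (SD), and *Muc1* the highest, 0.41 ± 0.69 (SD). Of 4 genes of the macula densa, the sensor plate at the end of this segment, *Nos1* and *Ptgs2* were not well above background and were not tested. *Slc9a2* had a mean of 0.04 and *Ptges* of -0.01.

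Of the 8 other cation chloride cotransporters, 1 was higher on both arrays, 2 were lower and 5 were opposite, with a median of -0.07. *Slc12a3*, the thiazide-sensitive cotransporter of the DCT, had the lowest mean, -0.30 ± 0.68 (SD), from -0.78 and 0.19, and so like *Slc12a1* it turned with the dye, but the other way. Of the 5 other prostaglandin receptors tested, 4 were opposite, and *Ptger1* (EP1) was higher on both arrays with 0.47 and 0.22. The receptor family had a median of -0.17. The inhibitors of protein phosphatase 1 beside *Ppp1r1a* had a median of 0.09 over 3 genes, all opposite, and *Ppp1r1b*, its closest relative, had -0.45 and 0.34. The 6 genes tested of the CLC list had a median of -0.01, with means from -0.15 (*Clcn7*) to 0.06 (*Clcn6*), 1 higher, 1 lower and 4 opposite. Over all 9 lists, 9 of 53 genes were lower on both arrays and 8 higher, with a median mean log2 ratio of -0.03. The shares over all genes tested were 15.6% lower and 12.1% higher, and these counts lie near them. Among 17 of the 53 genes with more than 1 tested probe, the probe means had opposite signs for 6.

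**Figure D4:**
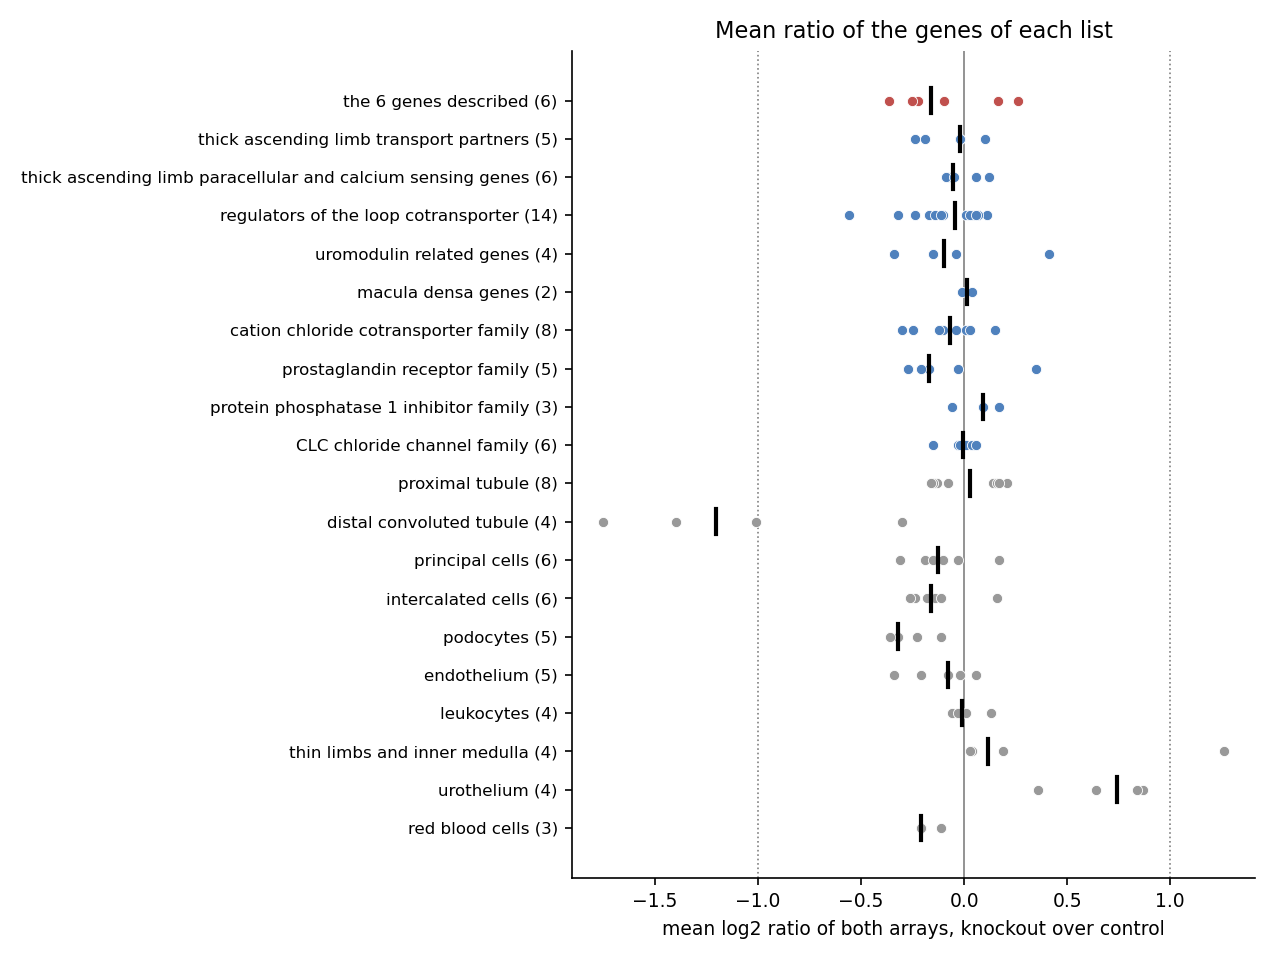
Points give the mean log2 ratio of knockout over control for each gene tested, with the number of genes in parentheses and the median of a list as a black bar, for the 6 genes (red), the related lists (blue) and the cell type markers (grey). The DCT markers (-1.21) have the lowest median and the urothelial markers (0.74) the highest. The medians of the 6 genes (-0.16) and of their transport partners (-0.02) lie between them, as do those of all other lists.

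Markers of other cells moved beside these values, and their part in the results was not tested. The DCT markers had the lowest median, -1.21 over 4 genes, 3 of which (*Pvalb*, *Trpm6* and *Calb1*) were at least 2-fold lower. The fourth, *Slc12a3*, had opposite directions, with log2 ratios of -0.78 and 0.19 and a mean of -0.30 ± 0.68 (SD). Each of the 4 was well above background in both genotypes, and their summed signal was 5154 (array 1) and 5586 (array 2) in the knockout, beside 12133 and 8655 in the control. *Bsnd* and *Kcnj1* are among the genes that DCT cells also express. The 6 markers of intercalated cells, which express *Bsnd* too, had a median of -0.16, with 4 lower on both arrays and 2 opposite. The 5 podocyte markers had a median of -0.32 (4 lower, 1 opposite), and the 6 principal cell markers one of -0.13 (2 lower, 4 opposite). The 4 urothelial markers were all higher on both arrays, with a median of 0.74 and summed signals of 829 and 807 in the knockout beside 560 and 503 in the control. In such sums the brightest probes weigh most. *Upk1b* and *Krt20* had low control signals, 40.2 and 40.9 as geometric means of the arrays, though well above background in both genotypes. *Akr1b3*, a marker of thin limbs and inner medulla, which neighbour the thick ascending limb, was at least 2-fold higher. Its mean was 1.26 ± 0.19 (SD), the other 3 of the list had opposite directions, and the median of the 4 was 0.12. The medians of the remaining lists were 0.03 for the proximal tubule (8 genes), -0.08 for endothelium (5 genes), -0.01 for leukocytes (4 genes tested) and -0.21 for red blood cells (3 genes). Over all 10 marker lists, 16 of 49 genes were lower on both arrays, 7 higher and 26 opposite, with a median of -0.11. The shares over all genes tested were 15.6% lower and 12.1% higher. By the rule of size 1 marker was higher and 3 were lower, beside 0.315% and 0.284% of all genes. The markers were chosen by name, so these counts are no test. Every marker of the proximal tubule, the main mass of kidney, and all 6 genes of the thick ascending limb were well above background in both genotypes, so the labelled tissue was read as kidney.

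Likeness between patterns was measured as the Euclidean distance between the pairs of log2 ratios on the 2 arrays. Among the 6 genes, *Bsnd* and *Ppp1r1a* were closest, at 0.07, and *Slc12a1* and *Kcnj1* farthest apart, at 1.60. Among the 53 related genes, the nearest to *Bsnd* was *Kcnj10* at 0.07, to *Kcnj1* it was *Wnk4* at 0.07 and to *Umod* it was *Slc12a7* at 0.06. *Cab39* was nearest to *Ppp1r1a* at 0.05, and *Ptger1* was nearest to *Ptger3* at 0.20. The nearest to *Slc12a1* was *Ppp1cb*, a catalytic subunit of protein phosphatase 1, at 0.13, whose log2 ratios of 0.87 and -0.72 also followed the dye. With only 2 arrays, these distances carry no error of their own. None of those to a nearest gene exceeded the software's error of 1 ratio, 0.20 to 0.22. They therefore do not settle which gene is most alike.

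The values were recomputed with 3 other corrections of background and dye. The mean of each of the 6 genes kept its sign in all 3, and with the main values the means ranged from 0.14 to 0.19 for *Slc12a1*, -0.17 to -0.10 for *Umod*, -0.40 to -0.36 for *Kcnj1*, -0.24 to -0.19 for *Bsnd*, 0.25 to 0.28 for *Ptger3* and -0.28 to -0.21 for *Ppp1r1a*. The arrays had the same direction in 2 of the 3 for *Kcnj1*, *Bsnd*, *Ptger3* and *Ppp1r1a*, in 1 for *Umod* and in 0 for *Slc12a1*. With background subtraction and centring on the median, which corrects no dye difference that varies with signal, the arrays were opposite for all 6 genes. The scanner's own ratios, the series matrix and the marked spots gave the main values again, to within 0.0013 on the log2 scale, and so add no check. The median over probes can differ only for *Ptger3*, whose log2 ratios it turned to -0.08 and 0.45, with a mean of 0.19.

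**Figure D5:**
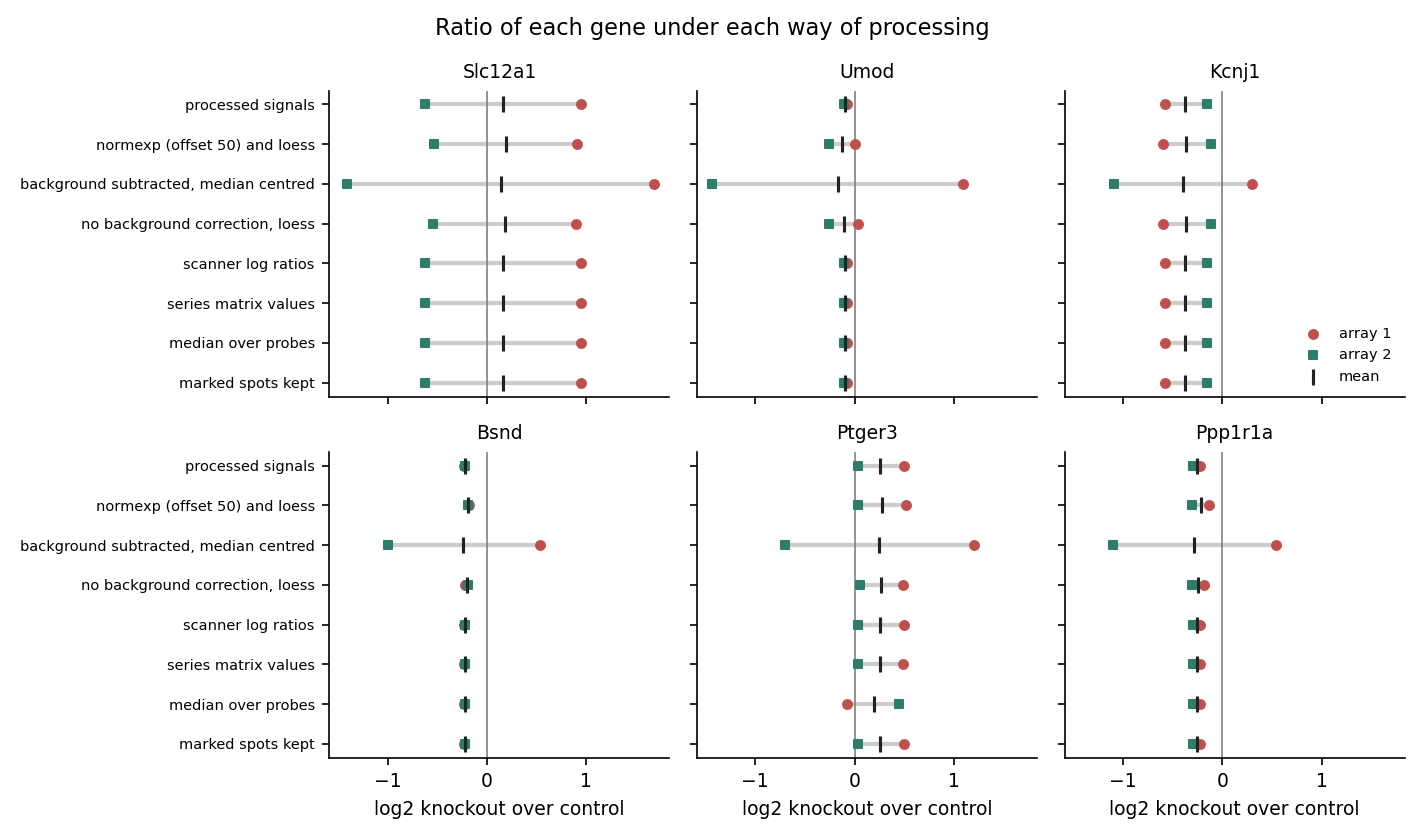
For each of the 6 genes, the log2 ratio of knockout over control is given on array 1 (circles), on array 2 (squares) and as the mean (bars) under each way of processing (rows). The means, in which a shift of the dyes cancels, range from -0.40 to -0.36 for *Kcnj1* and from 0.14 to 0.19 for *Slc12a1*. Background subtraction with median centring moves the arrays apart for every gene.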

How the data were processed

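Kidney RNA of both genotypes was measured on 2 arrays with exchanged dyes. The deposited scanner files come from Agilent Feature Extraction (10.7.3.1 in the file headers, 10.5.1.1 in the submitters' processing notes), and the authors gave the intensity of each spot before and after correction for background, spatial trends and dye. The files deposited by the authors hold the red over green log10 ratio too, its log10 error, and a matrix of log10 ratios of knockout over control.

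Processed intensities were taken to log2 and turned to knockout over control by the dye labels. Control spots and spots marked as outliers were left out. Where a gene had several probes, the brightest over all channels stood for it, and it was tested if, on both arrays, 1 genotype was well above background (19708 genes, of which 18921 in both). The rule of size asks for a mean log2 ratio of 1 or more, up or down, with no change of sign between the arrays.

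The 6 genes, the gene lists and the rules were chosen with earlier results of these data known. The text names the 6 genes, *Cnnm2*, genes of lists of 8 or fewer, the genes of a longer list with the highest and lowest mean or a change by size, and the nearest gene to each of the 6. *Stk39* and *Oxsr1* were named in addition, after their values were seen. *Cldn10* was matched by synonym in the RefSeq gene table. Some genes of these lists are not reported here and were left out of the list counts and medians.

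Alternatives were normexp (offset 50) with loess, subtracted signals (floor 1) centred on the median, loess without background correction, the deposited log10 ratios, other rules for probes and filters, each array alone, the methods' t-test (threshold 0.1 and a mean of at least 2-fold) and limma 3.58.1. The code was tested on simulated data. Python 3.11.15 (numpy 2.4.6, pandas 2.3.3, scipy 1.17.1) and R 4.3.3 were used.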

Additional observations from a re-analysis of the deposited data

How the results depend on the processing

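Each of the 6 genes kept the direction of its mean under the 3 other corrections of background and dye. A shift of the dyes cancels in that mean, so this is no check of the dye correction. Of the 6 genes, 0 reached the 2-fold rule under any alternative. With subtracted and median-centred signals, the median of the 6 moved from -0.16 to -0.21, the genes with the same direction on both arrays went from 5 to 0 of the 6, and from 5458 to 1746 of all genes. Of all genes, 118 met the rule of size, against 15 with normexp and loess, 55 with subtracted signals, 24 with loess alone, 411 with no limit on signal and 64 with both genotypes above background. From 1 array alone, without array 1 or without array 2, 700 to 857 genes were 2-fold changed, the median of the 6 was between -0.18 and -0.15, and *Cnnm2* between -2.88 and -2.46. The methods' t-test, paired within arrays, counted 36 genes with the 2-fold limit, and 0 after Benjamini-Hochberg adjustment. Without the limit on size, 434 higher and 550 lower genes were under its threshold of 0.1 before adjustment, 2 of the 6 (*Bsnd* and *Ppp1r1a*) among them. limma counted 0 genes at an adjusted p under 0.05, where 124 higher and 132 lower genes had an unadjusted p under 0.05, none of them among the 6. These tests take the arrays as replicates, which the labels do not state. Neither has a term for the dye, so the dye difference between the arrays counts as error in both. Every ratio is paired, since it is taken within an array, so a fit with a replicate block is the same fit. The number of arrays limits the precision, and the dimmest probe of the 6 genes was 11.4 times its background. The cause of the differences between the corrections and between the filters was not tested.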
